A study of Rattus norvegicus with 14 samples.

Results

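Gene expression was measured in 3 malignant peritoneal mesotheliomas that had been induced in rats by MWCNT C, 1 of several custom-made multiwalled carbon nanotube (MWCNT) materials, and was set against 3 control peritoneal tissues. The tumors were chosen by the sample titles and make up 3 of the 14 arrays of the series, which also holds 2 MWCNT B, 3 MWCNT D and 3 amosite asbestos tumors. All animals were male Wistar rats, and each array carries RNA of 1 tissue of 1 rat. The MWCNT C rats had received 1 injection of the nanotubes into the peritoneal cavity, in artificial lung medium. The control tissues are labelled as sham-treated, while the methods of the study call them untreated, so that what the control rats received is not settled. By histology, MWCNT C tumors 1 and 2 were sarcomatoid (spindle-shaped cells) and tumor 3 was biphasic (spindle-shaped and epithelial areas), and none of the 3 was epithelioid.

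Malignant mesothelioma arises from the mesothelium, the single sheet of flat cells that lines the peritoneal, pleural and pericardial cavities. Long, stiff fibers that are not cleared from such a cavity are known to keep macrophages and mesothelial cells under chronic inflammatory and oxidative stress, which is the background against which MWCNTs and asbestos are compared. Mesothelial cells are unusual in making simple epithelial keratins together with mesenchymal proteins such as vimentin, and sarcomatoid tumors are known for the mesenchymal side of that mixture.

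Values are log2(signal + 1) of the array intensities, so that a difference of 1 is a 2-fold difference, and levels of different probe sets are not compared. The median array signal was 129 to 139 in the MWCNT C tumors and 96.9 to 104 in the controls, and 18.1% to 19.0% of the probe sets in tumors and 21.8% to 24.4% in controls lay below a log2 signal of 5. The 3 tumor arrays correlated with each other at 0.899 to 0.939 and with the controls at 0.684 to 0.731, whereas the controls correlated at 0.969 to 0.975, all across 31042 probe sets. The signal of the 3′ over the 5′ control probe sets of beta-actin was 0.47 to 0.56 log2 in the tumors and -1.24 to -0.65 in the controls, and that of hexokinase was 0.89 to 1.12 in the tumors and 1.70 to 3.91 in the controls. That of GAPDH overlapped between the groups, at 0.01 to 0.18 in the tumors and 0.10 to 0.16 in the controls. The median signal, the share of low signals and the beta-actin and hexokinase measures moved with the groups, and their part in the results was not tested.

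Between MWCNT C tumors and controls, 9950 of 31042 probe sets were called changed, which is 32.1% (limma, Benjamini-Hochberg adjusted p below 0.05 and more than 2-fold). Of the called probe sets, 6793 (21.9% of all) were higher and 3157 (10.2% of all) were lower in the tumors. Higher calls were 68.3% of all calls on the deposited scale, 46.1% when each array was centred on its median and 51.5% after quantile normalization. Centring moved the median of all probe sets by 0.39. At the level of 14217 genes, each taken as its brightest probe set, 3542 (24.9%) were called higher and 1436 (10.1%) lower, and the arrays of the groups did not overlap for 9437 genes (66.4%). The median difference over all genes was 0.41. The gene groups below are to be read against it, and their counts of calls against 24.9% higher and 10.1% lower. The tissues are bulk samples, so that more cells of a type and more RNA per cell cannot be told apart.

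Among the 15 genes with the largest rises whose groups do not overlap were Pkp1 and Dsg2 of desmosomes, the keratins Krt8, Krt14 and Krt18, the proteases Mmp9 and Mmp13, the growth factor Tgfa and the secreted protein Spp1, all described below. Anxa8, an annexin that binds membranes, was another, with 7.85, 5.11 and 12.68 in the MWCNT C tumors, against 0.02, 0.02 and 0.04 in the controls, and Tnn, a tenascin of the matrix, had 10.97, 4.47 and 11.05 in the tumors and 0.01, 0.01 and 0.00 in the controls. Since the controls of such genes lay near 0, the size of their differences depends on the lowest signals, and 8 of the 15 lost their call when signals below 5 were raised to 5. The 15 largest falls were all genes known from striated muscle, led by Cmya5, a protein of muscle costameres, at -14.92 (SE 0.37, adjusted p = 1.1e-10), and Pgam2. All 15 kept their call with low signals raised.

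**Figure D1:**
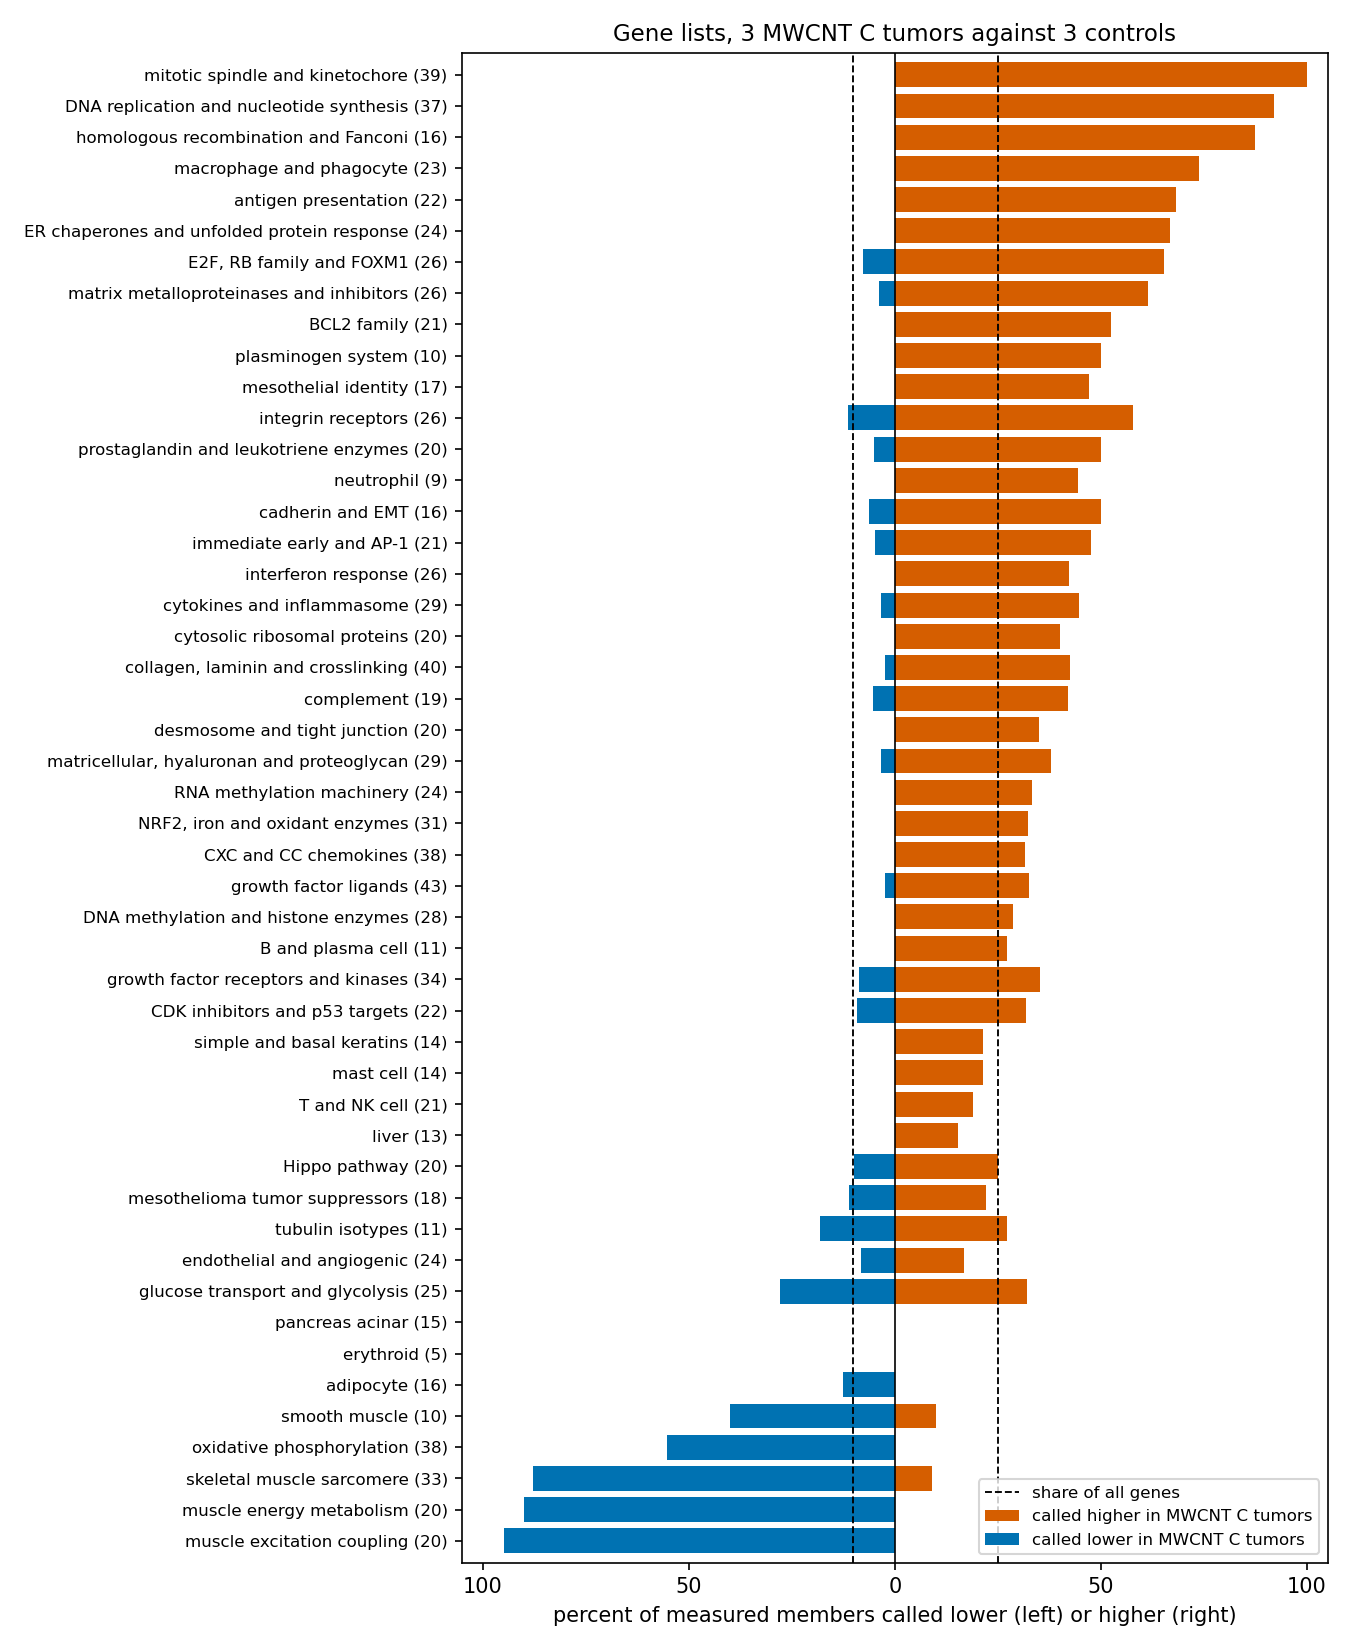
Percent of the measured members of each gene list called higher (right, orange) or lower (left, blue) in 3 MWCNT C tumors against 3 controls, with the number measured beside each name and dashed lines at the shares of all genes (24.9% higher, 10.1% lower). All 39 mitotic genes were called higher, and 29 of 33 sarcomere genes were called lower.

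The genes of cell division moved as the most complete group. All 39 measured genes of the mitotic spindle and kinetochore, the machinery that attaches and pulls apart the chromosomes, were called higher, with a median difference of 4.99, against 0.41 for all genes. All 39 kept the call with each array centred and with low signals raised to 5. Mki67, the antigen by which proliferating cells are counted in tissue sections, had log2 signals of 10.96, 12.58 and 10.83 in the MWCNT C tumors, against 5.60, 5.81 and 5.53 in the controls. MWCNT C tumor 2 had the highest Mki67 signal, and every tumor lay more than 5 above every control. The difference was 5.81 (SE 0.55, adjusted p = 1.5e-05). Cdk1, the kinase that starts mitosis, had 11.05, 11.78 and 10.64 in the MWCNT C tumors, against 5.67, 5.97 and 5.25 in the controls, a difference of 5.52 (SE 0.49, adjusted p = 1e-05). Its partner Ccnb1 (cyclin B1) had 10.03, 11.19 and 9.66 in the tumors and 5.03, 5.35 and 4.72 in the controls. The groups were well apart for both genes, with the same order of the 3 tumors as for Mki67.

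Further along mitosis, Plk1, the kinase that acts from mitotic entry to exit, had 8.88, 9.87 and 9.15 in the MWCNT C tumors, against 3.96, 3.59 and 3.64 in the controls, and Aurkb, the kinase of the chromosomal passenger complex, had 10.43, 10.93 and 9.82 in the tumors and 4.65, 5.14 and 4.89 in the controls. The differences were 5.57 (SE 0.45, adjusted p = 4.9e-06) for Plk1 and 5.50 (SE 0.42, adjusted p = 3.3e-06) for Aurkb. Cdc20, which activates the anaphase-promoting complex, differed by 4.73 (SE 0.42, adjusted p = 9.7e-06). Top2a, the topoisomerase that untangles sister chromatids, differed by 5.12 (SE 0.47, adjusted p = 1.2e-05), and the kinesin Kif20a, which acts in cytokinesis, by 5.86 (SE 0.54, adjusted p = 1.3e-05). Tumor 2 had the highest signal of the 3 for each of these 5 genes.

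RefSeq promoters (build GRCr8, 250 bases before to 50 after the first listed start) matched 34 of the 39 mitotic genes. They are shown because these genes moved together and because mitotic promoters are known for a CCAAT box near the cell cycle homology region, whose letters are TTTGAA. The CCAAT box, searched on both strands, was in 26 of the 34 windows (76.5%), against 37.7% of 27457 promoters in all and 37.3% of the 11700 promoters of genes measured here. TTTGAA, on both strands, was in 25 (73.5%), against 18.1% of all promoters and 12.3% of those measured. Both motifs, which can overlap by 1 letter at most, were in 21 (61.8%), against 7.25% and 5.03%. The windows of Cdk1 (chr20:19265043-19265342, plus strand), Plk1 (chr1:186147408-186147707, plus strand) and Cdc20 (chr5:137255750-137256049, minus strand) follow, 5′ to 3′ along the gene, with CCAAT and TTTGAA of either strand in capitals.
Cdk1: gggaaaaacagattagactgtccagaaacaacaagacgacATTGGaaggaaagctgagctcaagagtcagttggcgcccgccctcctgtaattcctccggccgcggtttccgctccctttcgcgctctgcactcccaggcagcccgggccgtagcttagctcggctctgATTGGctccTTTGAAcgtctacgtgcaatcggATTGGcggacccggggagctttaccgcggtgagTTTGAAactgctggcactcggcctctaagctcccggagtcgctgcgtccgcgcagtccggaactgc
Plk1: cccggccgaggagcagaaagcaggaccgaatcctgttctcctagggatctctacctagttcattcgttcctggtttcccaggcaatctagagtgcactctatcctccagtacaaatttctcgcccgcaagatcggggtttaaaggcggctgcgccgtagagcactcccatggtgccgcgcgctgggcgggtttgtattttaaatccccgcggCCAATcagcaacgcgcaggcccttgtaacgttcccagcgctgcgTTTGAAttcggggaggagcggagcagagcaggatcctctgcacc
Cdc20: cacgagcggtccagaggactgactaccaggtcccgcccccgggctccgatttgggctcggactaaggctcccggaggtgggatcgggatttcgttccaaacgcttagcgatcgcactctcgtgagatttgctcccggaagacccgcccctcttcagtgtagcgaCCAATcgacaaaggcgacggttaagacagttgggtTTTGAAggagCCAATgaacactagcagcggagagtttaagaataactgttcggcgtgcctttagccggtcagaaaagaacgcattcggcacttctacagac
In the Cdk1 window 1 TTTGAA began 72 bases and another 16 bases before the start, while in Cdc20 it began 51 bases before the start and in Plk1 at base 7 after it. A match of letters is a description of the window, not evidence of a bound site.

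DNA replication genes rose as a group too, by smaller amounts. Of 37 measured genes of replication and nucleotide synthesis, 34 were called higher and 0 lower, with a median of 2.55 (29 higher with arrays centred). Mcm6, a subunit of the replicative helicase, had 10.53, 11.41 and 10.43 in the MWCNT C tumors, against 5.21, 5.95 and 5.57 in the controls. Tumors were far above controls, and the difference was 5.21 (SE 0.36, adjusted p = 1.2e-06). Tk1, the thymidine kinase of S phase, differed by 4.17 (SE 0.57, adjusted p = 0.00018), Tyms, which makes thymidylate, by 4.99 (SE 0.61, adjusted p = 9.2e-05), and Pcna, the sliding clamp, by 2.20 (SE 0.27, adjusted p = 9e-05). Shmt1, Pola2 and Ctps1 did not pass the test, with differences of 0.40, 0.36 and 0.11. Of the 33 matched promoters of this list, 13 (39.4%) held TTTGGCGC or TTTCCCGC on either strand, forms of the site that E2F factors are known to bind, against 1.53% of all promoters and 2.59% of those measured. The Mcm6 window (chr13:42404303-42404602, minus strand) is shown with TTTGGCGC in capitals, which began 139 bases before the start.
Mcm6: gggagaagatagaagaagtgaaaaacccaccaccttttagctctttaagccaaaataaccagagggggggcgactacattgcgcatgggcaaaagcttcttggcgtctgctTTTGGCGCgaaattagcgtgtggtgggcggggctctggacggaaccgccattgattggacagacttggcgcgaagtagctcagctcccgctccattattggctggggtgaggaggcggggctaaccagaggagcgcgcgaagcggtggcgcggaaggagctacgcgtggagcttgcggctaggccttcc

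Among the regulators of the cell cycle, 17 of 26 genes of the E2F, RB and FOXM1 list were called higher and 2 lower (13 and 4 with arrays centred). Ccnd1 (cyclin D1), which opens G1 with its kinases, had 12.47, 13.16 and 11.48 in the MWCNT C tumors, against 7.78, 8.11 and 7.89 in the controls, a difference of 4.44 (SE 0.47, adjusted p = 3.2e-05). Its partner kinase Cdk4 had 11.76, 11.72 and 11.94 in the tumors and 9.22, 9.17 and 9.14 in the controls, and neither gene had overlapping groups. The difference in Cdk4 was 2.63 (SE 0.29, adjusted p = 4.5e-05). E2f1, the activator of S phase genes, differed by 4.56 (SE 0.49, adjusted p = 3.7e-05) and Foxm1, which drives mitotic genes, by 5.63 (SE 0.52, adjusted p = 1.2e-05). E2f6 (difference -2.13) and Tfdp2 (difference -2.45) were the 2 called lower. Rb1, the retinoblastoma protein that holds E2F in check, had 9.48, 9.38 and 9.43 in the MWCNT C tumors, against 10.24, 10.27 and 10.19 in the controls. The 3 tumors were all below the 3 controls, yet the difference of -0.80 (adjusted p = 0.027) was less than 2-fold, and Rb1 was called lower only with arrays centred. Homologous recombination and Fanconi genes, which repair broken replication forks, were called higher for 14 of 16 members and lower for 0, with a median of 2.35. Examples are the exonuclease Exo1, which differed by 4.33 (SE 0.42, adjusted p = 1.9e-05), and the helicase Blm, which differed by 3.03 (SE 0.35, adjusted p = 5.8e-05).

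Inhibitors and tumor suppressors behaved unevenly. Of 22 CDK inhibitors and p53 targets, 7 were called higher (31.8%, against 24.9% of all genes) and 2 lower (9.09%, against 10.1%). Cdkn2a, which encodes p16 and p19Arf and is often deleted in human mesothelioma, had 6.58, 6.79 and 5.72 in the MWCNT C tumors, against 2.95, 3.98 and 4.09 in the controls. All tumors lay above all controls, at low signals on both sides, and the difference was 2.69 (SE 0.58, adjusted p = 0.0035). Its neighbor Cdkn2b had 5.54, 5.43 and 5.63 in the tumors and 5.39, 5.66 and 5.64 in the controls, with overlapping groups and a difference of -0.03. Cdkn2c (p18) differed by 2.65 (SE 0.47, adjusted p = 0.001). Cdkn1a (p21), the best-known p53 target, was not called, with a difference of 0.35 (adjusted p = 0.54), while its other probe set was called higher. The p53 targets Bbc3 and Plk2 were called higher, with differences of 2.28 and 2.35, and Ccng1 and Sesn1 lower, with differences of -2.09 and -2.60.

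Of 18 genes known as suppressors in mesothelioma, 4 were called higher and 2 lower on the deposited scale, and 2 higher and 4 lower with arrays centred. The shares on the deposited scale were 22.2% and 11.1%, against 24.9% and 10.1% of all genes. With the probe set of the largest difference for each gene, 7 were called higher. Bap1, the nuclear deubiquitinase lost in many human mesotheliomas, had 9.89, 9.99 and 10.28 in the MWCNT C tumors, against 10.90, 10.95 and 10.84 in the controls, and Nf2, the merlin gene that restrains growth through the Hippo pathway, had 9.20, 9.32 and 9.82 in the tumors and 9.85, 9.74 and 9.74 in the controls. Tumor levels of Bap1 were below every control, while those of Nf2 overlapped with them. The differences were -0.85 (adjusted p = 0.0009) for Bap1 and -0.33 (adjusted p = 0.3) for Nf2, neither past 2-fold, and with arrays centred Bap1 was called lower. The 2 called lower were Ulk2, a kinase of autophagy, at -1.94 (SE 0.26, adjusted p = 0.00018), and Tsc1, which restrains mTOR, at -1.32 (SE 0.27, adjusted p = 0.0026). In the Hippo pathway list, 5 of 20 genes were called higher and 2 lower. Among the higher was the factor Tead2 at 3.05 (adjusted p = 0.029), which was not called with low signals raised to 5. Its call was also lost without any array but tumor 2, at adjusted p of 0.054 to 0.11. The 2 lower were the related factor Tead4 at -1.76 and the scaffold Amotl1 at -2.83. The higher count was 2 without control 1, 3 without control 2 or without tumor 3, and 9 with the probe set of the largest difference for each gene. Of the 3 probe sets of Tead4, 1 was called higher. The target Ankrd1 had 4.61, 5.08 and 5.15 in the tumors and 4.71, 4.88 and 4.85 in the controls and was not called, at a difference of 0.14.

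Of 17 measured genes of mesothelial identity, 8 were called higher, 0 lower and 9 did not pass the test, with a median of 4.67. With low signals raised to 5 the median was 2.69 and 4 were called, and 5 were called without tumor 1. Msln (mesothelin), a surface protein of mesothelium, had 11.11, 11.57 and 13.38 in the MWCNT C tumors, against 4.82, 3.50 and 6.64 in the controls. Wt1, the transcription factor by which pathologists recognize mesothelial tumors, had 10.73, 11.59 and 11.77 in the tumors and 3.62, 3.26 and 5.54 in the controls. Neither gene had overlapping groups, and the controls were at the low end of the scale. The differences were 7.03 (SE 1.30, adjusted p = 0.0014) for Msln and 7.23 (SE 1.09, adjusted p = 0.00036) for Wt1. The simple keratin Krt8 had 11.53, 11.90 and 13.42 in the MWCNT C tumors, against 3.05, 3.84 and 5.47 in the controls, a difference of 8.17 (SE 1.25, adjusted p = 0.00039), and its partner Krt18 had 11.07, 7.03 and 12.09 in the tumors and 0.03, 1.81 and 3.66 in the controls. Krt18 was called on the deposited scale, at a difference of 8.23, but not with signals below 5 raised to 5 (adjusted p = 0.054). Calb2 (calretinin), a standard mesothelial antigen, had 7.55, 7.32 and 7.51 in the MWCNT C tumors, against 7.27, 7.52 and 7.36 in the controls. Its groups overlapped, and it did not pass the test at a difference of 0.08 (adjusted p = 0.77).

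The sum of the mesothelial probe sets was 0.126%, 0.086% and 0.443% of the array signal in MWCNT C tumors 1, 2 and 3, against 0.007% to 0.01% in the controls. Biphasic tumor 3 was the highest. The same tumor stood apart for genes of epithelial adhesion. Cdh1 (E-cadherin) had 7.26, 5.02 and 13.27 in the MWCNT C tumors, against 2.12, 3.29 and 2.83 in the controls, and Epcam had 7.89, 4.47 and 12.10 in the tumors and 4.11, 2.78 and 3.57 in the controls. For both genes tumor 3 was more than 4 above tumors 1 and 2, and the tumors as a group did not pass the test, with adjusted p of 0.055 for Cdh1 and 0.11 for Epcam. Without tumor 2, the lowest, the differences were 7.52 for Cdh1 and 6.51 for Epcam. Without tumor 3, the highest, they were 3.39 and 2.70. These tumors were singled out by their values, so that these fits are no test. Krt19 showed the same order, with 8.26, 5.82 and 13.33 in the MWCNT C tumors, against 0.07, 2.89 and 5.50 in the controls. Its difference was 7.97 without tumor 2 and 4.22 without tumor 3, fits that are no test for the same reason. Of 14 keratins 3 were called higher (21.4%, against 24.9% of all genes), namely Krt8, Krt18 and the basal keratin Krt14. Krt8 alone kept the call with low signals raised to 5, and 5 keratins were called without tumor 2.

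Desmosomes, the rivets between epithelial cells, were called higher for 7 of 20 genes in a list that also holds tight junctions. Pkp1 (plakophilin 1) had 10.94, 11.34 and 12.26 in the MWCNT C tumors, against 2.82, 0.08 and 0.07 in the controls. The difference was 10.52 (SE 1.14, adjusted p = 3.9e-05), or 6.51 (adjusted p = 0.001) with low signals raised to 5. Dsg2 (desmoglein 2) had 9.80, 9.83 and 11.94 in the tumors and 1.32, 1.71 and 4.61 in the controls, a difference of 7.98 (SE 1.44, adjusted p = 0.0011). Both were high in every tumor, sarcomatoid ones included, and low in every control. The cadherin and transition list holds both epithelial and mesenchymal genes, and 8 of its 16 measured members were called higher and 1, Cdh15 of muscle, lower. Twist1, a mesenchymal transcription factor, had 11.08, 11.22 and 10.19 in the MWCNT C tumors, against 6.87, 7.06 and 7.19 in the controls, and Snai1 (Snail) had 10.54, 9.51 and 9.40 in the tumors and 7.13, 7.23 and 7.29 in the controls. The groups did not overlap for either, and the differences were 3.79 (SE 0.95, adjusted p = 0.0078) for Twist1 and 2.60 (SE 0.51, adjusted p = 0.002) for Snai1. Vim (vimentin) was called higher at 2.11 (SE 0.36, adjusted p = 0.00083), as were Cdh11, Cdh3 and S100a4, whereas Zeb1 had a difference of -0.20 and was not called.

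**Figure D2:**
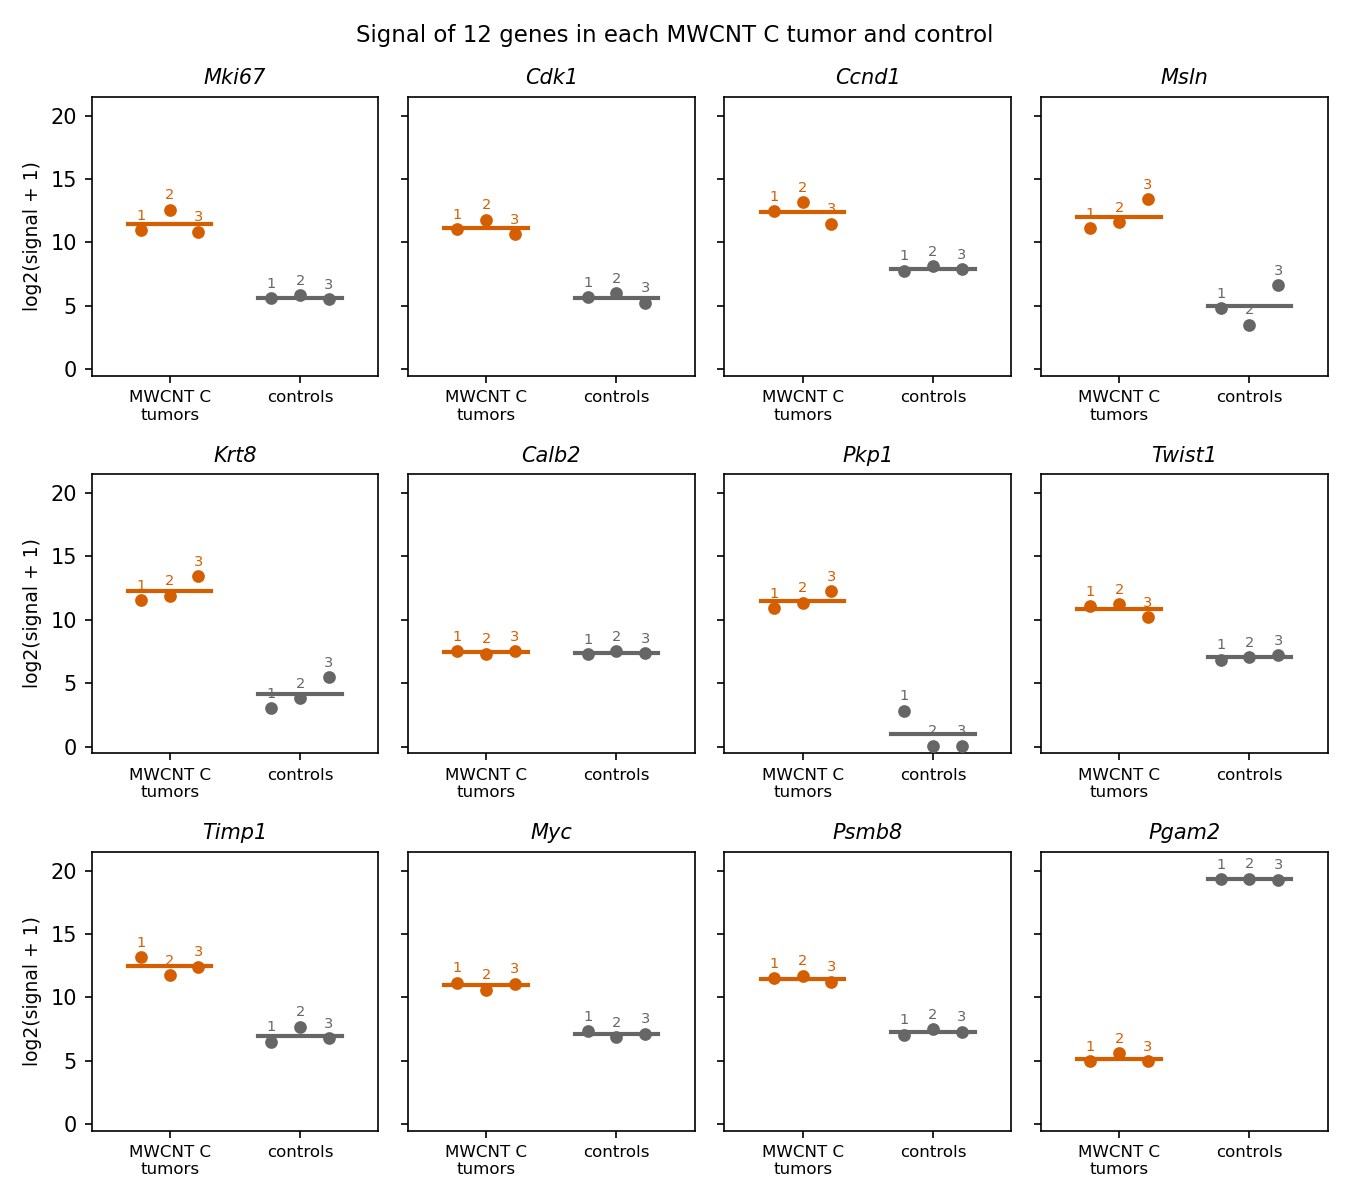
Log2(signal + 1) of 12 genes in each MWCNT C tumor (orange, numbered 1 to 3) and each control (gray), with the group mean as a bar. Tumors and controls do not overlap for 11 of the 12 genes, while for Calb2 they do. The 12 were picked from the genes named in the text, and 66.4% of all genes do not overlap.

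Transcription factors of the immediate early response, which cells turn on within minutes of a stimulus, were called higher for 10 of 21 members and lower for 1. Fosl1, a subunit of the AP-1 factor, had 11.37, 10.98 and 6.75 in the MWCNT C tumors, against 3.80, 4.47 and 4.18 in the controls. Sarcomatoid tumors 1 and 2 had more than biphasic tumor 3, and all 3 had more than any control, a difference of 5.56 (SE 1.46, adjusted p = 0.0099). Junb had 10.27, 8.64 and 9.43 in the tumors and 6.07, 6.37 and 6.39 in the controls and differed by 3.17 (SE 0.41, adjusted p = 0.00013). Myc, the growth regulator, had 11.17, 10.59 and 11.06 in the MWCNT C tumors, against 7.35, 6.87 and 7.13 in the controls and differed by 3.82 (SE 0.29, adjusted p = 2.7e-06). Fos and Jun themselves were not called, with differences of 0.82 (adjusted p = 0.36) and 0.84 (adjusted p = 0.074). Without control 3 the difference in Jun was 1.15, but that control was singled out after the values were seen, so that this fit is no test. Of the 3 probe sets of Jun, 1 was called higher. Nr4a1, an orphan nuclear receptor of the same response, was the 1 called lower, with 6.62, 5.64 and 6.47 in the tumors and 10.10, 10.22 and 10.23 in the controls and a difference of -3.94 (SE 0.46, adjusted p = 6.6e-05).

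Matrix metalloproteinases and their inhibitors, which cut and protect the extracellular matrix, were called higher for 16 of 26 genes and lower for 1, a call that was lost without control 1, tumor 1 or tumor 2. Timp1, an inhibitor, had 13.18, 11.75 and 12.41 in the MWCNT C tumors, against 6.49, 7.68 and 6.80 in the controls, a difference of 5.46 (SE 0.91, adjusted p = 0.00068). Mmp14, the membrane-bound collagenase, had 11.71, 11.71 and 12.30 in the tumors and 9.56, 9.97 and 9.34 in the controls, a difference of 2.28 (SE 0.61, adjusted p = 0.011). The groups did not overlap for either gene. Mmp9 (gelatinase B) varied far more, with 5.97, 12.30 and 10.46 in the MWCNT C tumors, against 0.00, 0.01 and 0.00 in the controls, and its call was lost with low signals raised to 5 (adjusted p = 0.083). Mmp10 (stromelysin 2) had 12.02, 4.15 and 4.76 in the tumors and 4.02, 1.09 and 4.21 in the controls, so that 1 tumor alone was high, and it was not called (adjusted p = 0.15). Mmp13 (collagenase 3) had 8.63, 7.31 and 9.28 in the MWCNT C tumors, against 0.03, 1.22 and 1.39 in the controls, with all tumors high, though its call too was lost with the low control signals raised (adjusted p = 0.16). Mmp2 (gelatinase A) had overlapping groups and a difference of 0.24.

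TGACTCA, the letters AP-1 is known to bind, was searched on both strands in the promoters of the list and found in 5 of the 19 that matched (26.3%), against 4.53% of all promoters and 3.79% of those measured. The windows of Mmp13 (chr8:12782579-12782878, plus strand) and Mmp10 (chr8:12974457-12974756, plus strand) follow because they hold the motif at nearly the same place while the genes differed in the 3 tumors, Mmp13 being high in all and Mmp10 in tumor 1 alone. The motif, in capitals, began 66 bases before the start in Mmp13 and, on the opposite strand, 61 bases before it in Mmp10.
Mmp13: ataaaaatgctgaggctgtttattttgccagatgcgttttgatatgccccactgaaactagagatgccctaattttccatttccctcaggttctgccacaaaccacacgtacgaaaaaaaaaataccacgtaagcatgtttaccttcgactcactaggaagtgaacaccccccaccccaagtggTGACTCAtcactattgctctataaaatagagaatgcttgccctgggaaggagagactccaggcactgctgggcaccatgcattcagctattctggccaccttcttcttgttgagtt
Mmp10: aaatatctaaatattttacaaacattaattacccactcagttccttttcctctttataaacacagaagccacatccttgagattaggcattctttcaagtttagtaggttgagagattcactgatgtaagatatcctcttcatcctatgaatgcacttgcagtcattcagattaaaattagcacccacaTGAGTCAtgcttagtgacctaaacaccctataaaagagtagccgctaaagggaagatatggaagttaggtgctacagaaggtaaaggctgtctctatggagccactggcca

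In the plasminogen system, which activates proteases at the cell surface, 5 of 10 genes were called higher and 0 lower. Plaur, the receptor of urokinase, had 10.50, 9.84 and 9.0 in the MWCNT C tumors, against 3.58, 4.71 and 5.08 in the controls, and Plat, the tissue-type activator, had 12.93, 13.00 and 12.04 in the tumors and 8.48, 9.11 and 8.42 in the controls. Tumors and controls were far apart for both, with differences of 5.32 (SE 1.03, adjusted p = 0.0018) for Plaur and 3.99 (SE 0.75, adjusted p = 0.0015) for Plat. Plau, urokinase itself, had 11.85, 11.70 and 10.07 in the MWCNT C tumors, against 10.04 ± 0.04 (SD, n = 3) in the controls, so that tumor 3 lay at the level of the controls, and it was not called (adjusted p = 0.32). Anxa2 and S100a10, which together bind plasminogen at the membrane, were both called, with differences of 3.18 and 2.22.

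Matrix genes rose in part. Of 40 genes in the collagen, laminin and crosslinking list, 17 were called higher and 1 lower. The lower call was lost with low signals raised to 5 and without any array but tumor 2. Lox (lysyl oxidase), which crosslinks collagen, had 12.79, 12.26 and 12.31 in the MWCNT C tumors, against 8.07, 9.28 and 8.95 in the controls, and Plod2, a lysyl hydroxylase of collagen, had 12.12, 11.87 and 12.93 in the tumors and 8.15, 7.92 and 8.39 in the controls. No tumor overlapped with a control for either, and the differences were 3.69 (SE 0.88, adjusted p = 0.0061) for Lox and 4.16 (SE 0.66, adjusted p = 0.00052) for Plod2. The chains of the most abundant fibrillar collagens did not pass the test, with differences of 0.38 for Col1a1, 0.79 for Col1a2 and 0.48 for Col3a1. The chains of beaded filament collagen did, with 2.21 (SE 0.52, adjusted p = 0.0054) for Col6a1 and 2.11 (SE 0.59, adjusted p = 0.013) for Col6a3.

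Of 29 matricellular, hyaluronan and proteoglycan genes, 11 were called higher and 1, Thbs4 (thrombospondin 4) of tendon and muscle, lower at -5.78 (SE 1.35, adjusted p = 0.0054). The lower count was 3 with arrays centred and 2 after quantile normalization or without tumor 2 or tumor 3. Spp1 (osteopontin), a secreted adhesion protein measured in the blood of mesothelioma patients, had 13.52, 12.77 and 11.64 in the MWCNT C tumors, against 0.03, 6.55 and 6.33 in the controls, and 1 control was near 0, so that the difference was 8.34 (SE 1.76, adjusted p = 0.0029) as deposited and 6.68 (adjusted p = 0.003) with low signals raised to 5. Sdc1 (syndecan 1), a cell surface proteoglycan, had 12.92, 10.85 and 12.05 in the MWCNT C tumors, against 5.33, 6.04 and 6.45 in the controls, a difference of 6.0 (SE 0.72, adjusted p = 7.7e-05). Vcan (versican) differed by 3.91 (SE 1.04, adjusted p = 0.011). Cd44, the hyaluronan receptor, had 12.52, 11.81 and 9.14 in the tumors and 7.10, 7.59 and 7.55 in the controls, more in the sarcomatoid tumors than in tumor 3. Its difference was 3.75 (SE 1.09, adjusted p = 0.017), and the adjusted p was 0.067 without tumor 1, 0.056 without tumor 2 and 0.052 without control 1. Of 26 integrin genes and adaptors 15 were called higher and 3 lower. Itga3, a laminin receptor chain, had 10.51, 10.58 and 10.02 in the MWCNT C tumors, against 4.79, 4.48 and 5.35 in the controls, a difference of 5.49 (SE 0.73, adjusted p = 0.00016), and Itga6 differed by 3.50 (SE 0.47, adjusted p = 0.00016). The 3 lower were Itgb1bp2 (melusin, a partner of integrin in muscle, -6.39), Itga7 (the laminin receptor of muscle, -2.78) and Itgb6 (-4.41).

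Macrophage genes were called higher for 17 of 23 members and lower for 0, with a median of 2.53. Their probe sets held 0.602%, 0.304% and 0.188% of the signal in tumors 1, 2 and 3, against 0.022% to 0.047% in the controls. Gpnmb, a glycoprotein of lipid-laden macrophages, had 13.00, 12.25 and 11.70 in the MWCNT C tumors, against 6.57, 8.45 and 6.74 in the controls, and Cd68, the lysosomal macrophage antigen, had 11.85, 11.67 and 9.82 in the tumors and 6.01, 7.89 and 7.07 in the controls. All tumors were above all controls for both, with the highest signal in tumor 1 and the lowest in tumor 3. The count of called members was 11 without tumor 1 and 10 without control 1. The differences were 5.07 (SE 0.57, adjusted p = 5.1e-05) for Gpnmb and 4.12 (SE 0.78, adjusted p = 0.0016) for Cd68. The scavenger receptor Cd163, a marker of tissue macrophages, had 11.40, 9.59 and 4.33 in the MWCNT C tumors, against 7.02, 7.94 and 7.78 in the controls. It was high in the sarcomatoid tumors and below the controls in the biphasic one, and was not called (adjusted p = 0.69). Csf1r, the receptor that macrophages need to live, had a difference of 1.43 (adjusted p = 0.12) and was not called either.

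Among immune cell lists, the shares called higher were 19.0% for T and NK, 27.3% for B and plasma and 21.4% for mast cells. All 3 were near the 24.9% of all genes, while the share of neutrophil genes, 44.4%, was above it. Of T and NK cell genes 4 of 21 were called higher (0 with low signals raised to 5, and 2 with arrays centred or without control 1), of B and plasma cell genes 3 of 11, of mast cell genes 3 of 14 and of neutrophil genes 4 of 9, with 0 lower in each. The defining markers Cd3e and Cd8a of T cells had differences of 1.03 and 1.41 and were not called, and of B cells Ms4a1 had 0.54. Of the 3 probe sets of Cd8a, 1 was called higher. Without tumor 3, its lowest, Cd8a was at 1.93, but that tumor was singled out by its value, so that this fit is no test. Gzmb, the granule protease of killer cells, had 12.09, 6.64 and 6.39 in the MWCNT C tumors, against 2.95, 4.01 and 3.40 in the controls, so that tumor 1 was far above the rest, and its call was lost with low signals raised to 5. The neutrophil calprotectin chain S100a9 had 12.58, 9.73 and 7.20 in the tumors and 4.63, 5.94 and 5.09 in the controls, and again tumor 1 was highest. It was called at 4.61 (adjusted p = 0.022), but without tumor 1 the adjusted p was 0.087, and it was between 0.05 and 0.068 without tumor 2, control 1 or control 3. The mast cell tryptase Tpsab1 had 11.70, 10.08 and 5.55 in the MWCNT C tumors, against 3.21, 6.0 and 6.19 in the controls, high in both sarcomatoid tumors and within the controls in tumor 3. Its probe set was not called over the 3 tumors (adjusted p = 0.08). Without tumor 3 the difference was 5.76, but Tpsab1 is among the genes with the largest gap of tumor 3, so that this fit is no test. The 3 mast cell calls became 6 without tumor 3, 1 without control 3 or after quantile normalization, and 0 without control 1, tumor 1 or tumor 2 or with low signals raised to 5. The 4 neutrophil calls became 7 without tumor 3, 2 without control 3, and 1 without control 1 or tumor 1.

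Some chemokines were far above the controls in every tumor and others mainly in tumor 1. Of 38 chemokines and receptors 12 were called higher (31.6%, against 24.9% of all genes) and 0 lower, with 7 higher when low signals were raised to 5. Cxcl13, the attractant of B cells, had 11.28, 9.96 and 10.20 in the MWCNT C tumors, against 4.86, 4.94 and 5.54 in the controls, and Ccl2, the attractant of monocytes, had 12.84, 9.69 and 11.15 in the tumors and 7.16, 7.48 and 6.31 in the controls. Both were apart from the controls in all 3 tumors, with differences of 5.37 (SE 0.96, adjusted p = 0.0011) for Cxcl13 and 4.24 (SE 0.90, adjusted p = 0.0031) for Ccl2. Cxcl2, an attractant of neutrophils, had 11.53, 4.52 and 5.46 in the MWCNT C tumors, against 3.44, 0.01 and 0.02 in the controls, and Ccl20 had 10.36, 4.23 and 4.55 in the tumors and 0.07, 0.01 and 3.04 in the controls. For these genes tumor 1 was more than 5 above tumors 2 and 3. Tumor 1 was also the highest for the cytokine Il6, with 9.33, 4.79 and 3.13 in the MWCNT C tumors, against 0.02, 0.00 and 0.12 in the controls, and for Ptgs2, the inducible cyclooxygenase, with 11.49, 4.43 and 7.14 in the tumors and 3.79, 4.55 and 4.68 in the controls. Cxcl2 (adjusted p = 0.009) and Il6 (adjusted p = 0.0049) were called as deposited and not with low signals raised to 5, and Ccl20 (adjusted p = 0.052) and Ptgs2 (adjusted p = 0.075) were not called. Without tumor 2, the lowest, the differences were 6.41 for Ccl20 and 4.98 for Ptgs2. Without tumor 1, the highest, they were 3.35 and 1.45. These tumors were singled out by their values, so that these fits are no test.

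Of 29 cytokine and inflammasome genes 13 were called higher and 1 lower, or 7 higher with low signals raised to 5 and 8 without control 3. Il18, a cytokine released by inflammasomes, had 10.65, 9.25 and 11.74 in the MWCNT C tumors, against 4.07, 5.51 and 4.89 in the controls, a difference of 5.72 (SE 0.66, adjusted p = 6.1e-05). Il1rl1, the receptor of interleukin 33, had 11.42, 10.52 and 6.84 in the tumors and 2.84, 3.43 and 2.38 in the controls, and Il33 itself had 12.73, 13.34 and 9.51 in the tumors and 8.13, 8.81 and 8.83 in the controls. All tumors exceeded all controls for both partners, most in tumors 1 and 2, with differences of 6.71 (SE 1.49, adjusted p = 0.004) for Il1rl1 and 3.27 (SE 1.17, adjusted p = 0.041) for Il33. The call of Il33 was lost with arrays centred, with low signals raised to 5, and without any 1 of tumors 1 and 2 and controls 1, 2 and 3, at adjusted p of 0.077 to 0.14. Il15, a cytokine that skeletal muscle also makes, was the 1 called lower, at -3.45 (SE 0.62, adjusted p = 0.0011). Tnf and Ifng were not called, with differences of 0.61 and -0.37. Without tumor 3, its lowest, Tnf was at 1.12, but that tumor was singled out by its value, so that this fit is no test.

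Genes of antigen presentation, which shows peptides to T cells, were called higher for 15 of 22 members and lower for 0. Psmb8, a subunit of the immunoproteasome, had 11.53, 11.69 and 11.22 in the MWCNT C tumors, against 7.06, 7.50 and 7.30 in the controls, and Tap1, the peptide transporter, had 9.23, 9.14 and 8.73 in the tumors and 2.11, 4.57 and 5.11 in the controls. The tumors lay less than 1 from each other for both, above all controls, and the differences were 4.19 (SE 0.49, adjusted p = 6.5e-05) for Psmb8 and 5.10 (SE 0.76, adjusted p = 0.00033) for Tap1. B2m, the light chain of class I, differed by 1.40 (SE 0.20, adjusted p = 0.00024). For class II, Cd74, the invariant chain, had 13.31, 11.27 and 11.80 in the MWCNT C tumors, against 10.28, 11.34 and 10.76 in the controls, with tumors and controls overlapping and an adjusted p of 0.1. Interferon response genes were called higher for 11 of 26 members and lower for 0, among them the GTPase Gbp2 at 3.55 (SE 0.49, adjusted p = 0.00019) and the factor Irf1 at 2.14 (SE 0.40, adjusted p = 0.0015). Ifit1, a classic target of type I interferon, had a difference of 0.03 and was not called. Complement genes were called higher for 8 of 19 and lower for 1, and the 3 chains of C1q among them are also in the macrophage list. Masp1, a protease of the lectin pathway, had 10.72, 12.21 and 8.96 in the tumors and 7.05, 6.99 and 6.83 in the controls and a difference of 3.67 (SE 0.85, adjusted p = 0.005), while of its other 2 probe sets 1 was called lower. The count of complement genes called higher was 3 without control 1, and 4 without control 3 or without tumor 1, and the 1 lower call was lost without any 1 of the 6 arrays.

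Enzymes of prostaglandin and leukotriene synthesis were called higher for 10 of 20 members and lower for 1 (6 higher with arrays centred). Alox15, a lipoxygenase, had 10.98, 9.83 and 10.38 in the MWCNT C tumors, against 5.47, 5.89 and 5.49 in the controls, and Ptgis, which makes prostacyclin, had 10.07, 9.70 and 11.67 in the tumors and 6.49, 6.74 and 6.62 in the controls. The groups were more than 2 apart for both, with differences of 4.78 (SE 1.31, adjusted p = 0.012) for Alox15 and 3.87 (SE 1.16, adjusted p = 0.02) for Ptgis. For Ptgis the adjusted p was 0.054 without control 1 and 0.07 without tumor 3. In the list of NRF2 targets, iron handling and oxidant enzymes, 10 of 31 were called higher and 0 lower (7 higher with arrays centred). The share called higher was 32.3%, against 24.9% of all genes. Hmox1, which breaks down heme, had 13.27, 10.16 and 11.13 in the MWCNT C tumors, against 7.28, 7.94 and 7.35 in the controls and differed by 4.0 (SE 0.66, adjusted p = 0.00064), and Cp (ceruloplasmin), the copper oxidase that loads iron onto transferrin, differed by 3.16 (SE 0.48, adjusted p = 0.00036). The classic NRF2 target Nqo1 had 9.61, 8.86 and 13.28 in the MWCNT C tumors, against 8.92, 9.15 and 8.70 in the controls, and the cystine importer Slc7a11 had 6.91, 4.29 and 11.58 in the tumors and 3.55, 4.05 and 3.93 in the controls. Biphasic tumor 3 was the highest for both, at more than 3 above tumors 1 and 2. Neither Nqo1 (adjusted p = 0.24) nor Slc7a11 (adjusted p = 0.093) was called. Slc7a11 was at 5.40 without tumor 2, its lowest, and at 1.75 without tumor 3, its highest. These tumors were singled out by their values, so that these fits are no test. Tfrc, the transferrin receptor, was below every control in each tumor, but was not called, with a difference of -1.12 (adjusted p = 0.27). The difference was uneven over the tumors, at -0.64 without tumor 1 and -1.63 without tumor 3.

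Growth factor receptors and kinases were called higher for 12 of 34 members and lower for 3, with 5 higher when low signals were raised to 5 and 7 with arrays centred, after quantile normalization or without control 1. The shares on the deposited scale were 35.3% and 8.82%, against 24.9% and 10.1% of all genes. Epha2, an ephrin receptor, had 9.59, 10.39 and 9.77 in the MWCNT C tumors, against 5.14, 5.36 and 5.83 in the controls, a difference of 4.48 (SE 0.64, adjusted p = 0.00026), and Lyn, a SRC family kinase of blood cells, had 9.47, 8.11 and 8.59 in the tumors and 4.81, 5.35 and 5.14 in the controls, a difference of 3.62 (SE 0.51, adjusted p = 0.00023). Ret, the receptor of glial-derived factors, was the largest of the 3 lower, with 6.84, 6.25 and 6.20 in the MWCNT C tumors, against 12.35, 12.12 and 11.88 in the controls and a difference of -5.69 (SE 1.59, adjusted p = 0.014). Fgfr4, a receptor of fibroblast growth factors, was another, at -3.59. Egfr had 9.08, 7.94 and 11.24 in the tumors and 8.69, 8.78 and 8.61 in the controls, highest in tumor 3, and was not called. Among ligands 14 of 43 were called higher (32.6%, against 24.9% of all genes) and 1 lower. Tgfa, a ligand of Egfr, had 10.48, 7.94 and 10.78 in the MWCNT C tumors, against 0.01, 2.35 and 3.79 in the controls, a difference of 7.68 (SE 1.17, adjusted p = 0.00039). Inhba, the chain of activin A, had 10.98, 9.97 and 11.06 in the tumors and 6.23, 6.36 and 5.84 in the controls, a difference of 4.53 (SE 1.08, adjusted p = 0.0058). Wnt5b had 7.15, 9.25 and 6.81 in the MWCNT C tumors, against 0.02, 0.01 and 0.01 in the controls, so that it was near 0 in every control, and its difference with low signals raised to 5 was 2.74 (adjusted p = 0.043). The ligand called lower was Egf, at -4.20 (SE 0.46, adjusted p = 4.1e-05), and the lower count was 2 with arrays centred or without tumor 1 or tumor 2.

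Genes of the BCL2 family and caspases were called higher for 11 of 21 members and lower for 0. The survival protein Bcl2a1 differed by 3.31 (SE 0.82, adjusted p = 0.0075), and Mcl1 by 1.15 (SE 0.24, adjusted p = 0.0027), which was not called with arrays centred or without tumor 2. Of genes that promote cell death, Bcl2l11 (BIM) differed by 2.53 (SE 0.40, adjusted p = 0.0005) and Casp8 by 4.10 (SE 0.33, adjusted p = 4.4e-06). Bcl2 itself was not called, at 0.33. Chaperones of the endoplasmic reticulum and genes of the unfolded protein response were called higher for 16 of 24 members and lower for 0. Pdia4, a disulfide isomerase, had 11.89, 11.78 and 12.09 in the MWCNT C tumors, against 8.52, 8.77 and 8.55 in the controls, a difference of 3.31 (SE 0.29, adjusted p = 9.9e-06), and Hspa5 (BiP) differed by 1.45 (SE 0.25, adjusted p = 0.00093). The stress effectors Atf4 and Xbp1 were not called, with differences of -0.32 and 0.72.

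Of 28 DNA methylation and histone enzymes 8 were called higher (28.6%, against 24.9% of all genes) and 0 lower on the deposited scale. With arrays centred 7 were called higher and 4 lower. Uhrf1, which brings the maintenance methyltransferase to replicating DNA, had 8.65, 9.69 and 7.63 in the MWCNT C tumors, against 4.05, 4.31 and 3.73 in the controls, and Dnmt1, that methyltransferase, had 10.02, 10.70 and 9.78 in the tumors and 6.75, 7.03 and 6.43 in the controls. Tumor 2 was highest for both, as for the mitotic genes, and the differences were 4.63 (SE 0.54, adjusted p = 6.7e-05) for Uhrf1 and 3.43 (SE 0.35, adjusted p = 2.5e-05) for Dnmt1. The de novo methyltransferase Dnmt3a had a difference of -1.07 (adjusted p = 0.14) and Dnmt3b of 0.35 (adjusted p = 0.37), neither called, although the other probe set of Dnmt3a was called lower. Ezh2, the Polycomb methyltransferase, differed by 3.25 (SE 0.31, adjusted p = 1.7e-05). In the RNA methylation list 8 of 24 were called higher (33.3%, against 24.9% of all genes) and 0 lower, or 5 and 1 with arrays centred. The cytosine methyltransferase Trdmt1 was at 2.10 (SE 0.31, adjusted p = 0.00033), and the writer Mettl3 was not called, at 0.45.

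Genes of skeletal muscle were the largest block of lower genes among the lists. Of 33 sarcomere genes 29 were called lower, with a median of -9.25, and 3, the tropomyosins Tpm1, Tpm2 and Tpm3, were called higher, at 2.88, 4.19 and 3.14. The call of Tpm1 was lost without control 1, control 2 or tumor 3. Tropomyosins also have forms outside muscle, and other probe sets of the same genes were called lower, 4 of 7 for Tpm1, 1 of 2 for Tpm2 and 1 of 12 for Tpm3. With the probe set of the largest difference for each gene, 0 sarcomere genes were called higher. Myh4, the fast myosin heavy chain, had 4.46, 4.93 and 4.56 in the MWCNT C tumors, against 17.39, 17.38 and 17.41 in the controls, and Ttn (titin) had 5.04, 4.84 and 5.19 in the tumors and 14.65, 14.69 and 14.67 in the controls. Every tumor was near the low end for both, and the differences were -12.75 (SE 0.22, adjusted p = 1.1e-11) for Myh4 and -9.64 (SE 0.17, adjusted p = 1.2e-11) for Ttn. Of 20 genes of excitation coupling, which link the nerve signal to calcium release, 19 were called lower and 0 higher, among them Ryr1, the calcium release channel, at -10.21 (SE 1.48, adjusted p = 0.00028), and Atp2a1, the calcium pump, at -8.89 (SE 0.18, adjusted p = 1.7e-11). Sarcomere probe sets held 0.262% to 0.318% of the signal in the tumors, against 8.08% to 8.77% in the controls, and those of excitation coupling 0.011% to 0.012%, against 7.17% to 7.33%. The control tissue thus carried skeletal muscle signal that was far lower in the tumors, and its part in the other differences was not tested.

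Smooth muscle genes were called lower for 4 of 10 members and higher for 1, and the list shares Des with the sarcomere list. The lower count was 3 with low signals raised to 5 or without any array but tumor 1, and 5 with arrays centred. The 1 higher was Acta2, the smooth muscle actin also found in myofibroblasts. It had 10.48, 10.19 and 10.80 in the MWCNT C tumors, against 7.05, 7.42 and 7.49 in the controls, a difference of 3.17 (SE 0.26, adjusted p = 4.8e-06). Adipocyte genes were called lower for 2 of 16 (12.5%, against 10.1% of all genes), among them Scd, a fatty acid desaturase, at -7.36 (SE 1.28, adjusted p = 0.00091). The count was 4 with arrays centred or without tumor 2, and 1 without control 2, control 3, tumor 1 or tumor 3. Adipoq (adiponectin), which fat cells secrete, had 3.04, 9.99 and 5.48 in the MWCNT C tumors, against 9.89, 11.07 and 11.14 in the controls. Tumor 2 was at the level of the controls, while tumors 1 and 3 were below them, and the gene was not called over all 3 (adjusted p = 0.075). Without tumor 2 the difference was -6.44, but that tumor was singled out by its value, so that this fit is no test.

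Of 20 genes of energy metabolism in muscle, such as creatine kinase and myoglobin, 18 were called lower and 0 higher. Of 25 genes of glucose transport and glycolysis 8 were called higher, 7 lower and 10 not. Some enzymes of the list have forms that differed in direction, and these were picked after their values were seen. Phosphoglycerate mutase is made as a muscle form, Pgam2, which had 4.97, 5.59 and 4.97 in the MWCNT C tumors, against 19.33, 19.36 and 19.28 in the controls, and a general form, Pgam1, which had 13.43, 13.38 and 13.55 in the tumors and 10.35, 10.64 and 10.58 in the controls. Neither had overlapping groups, and the differences were of opposite sign, at -14.15 (SE 0.28, adjusted p = 1.7e-11) for Pgam2 and 2.93 (SE 0.28, adjusted p = 1.5e-05) for Pgam1. Enolase showed the same, with -4.69 for the muscle form Eno3, 2.94 (SE 0.27, adjusted p = 1.3e-05) for the general form Eno1 and 3.74 for Eno2. Phosphofructokinase did so with -4.53 for the muscle form Pfkm, 3.28 for Pfkp and 2.88 for Pfkl. The insulin-dependent glucose transporter Slc2a4 of muscle and fat differed by -7.85 (SE 0.60, adjusted p = 3.1e-06) and the general transporter Slc2a1 by 4.28 (SE 0.99, adjusted p = 0.0051). Ldha, which makes lactate, had 13.24, 12.23 and 13.36 in the MWCNT C tumors, against 13.50, 13.54 and 13.48 in the controls and was not called, at a difference of -0.56 (adjusted p = 0.22).

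**Figure D3:**
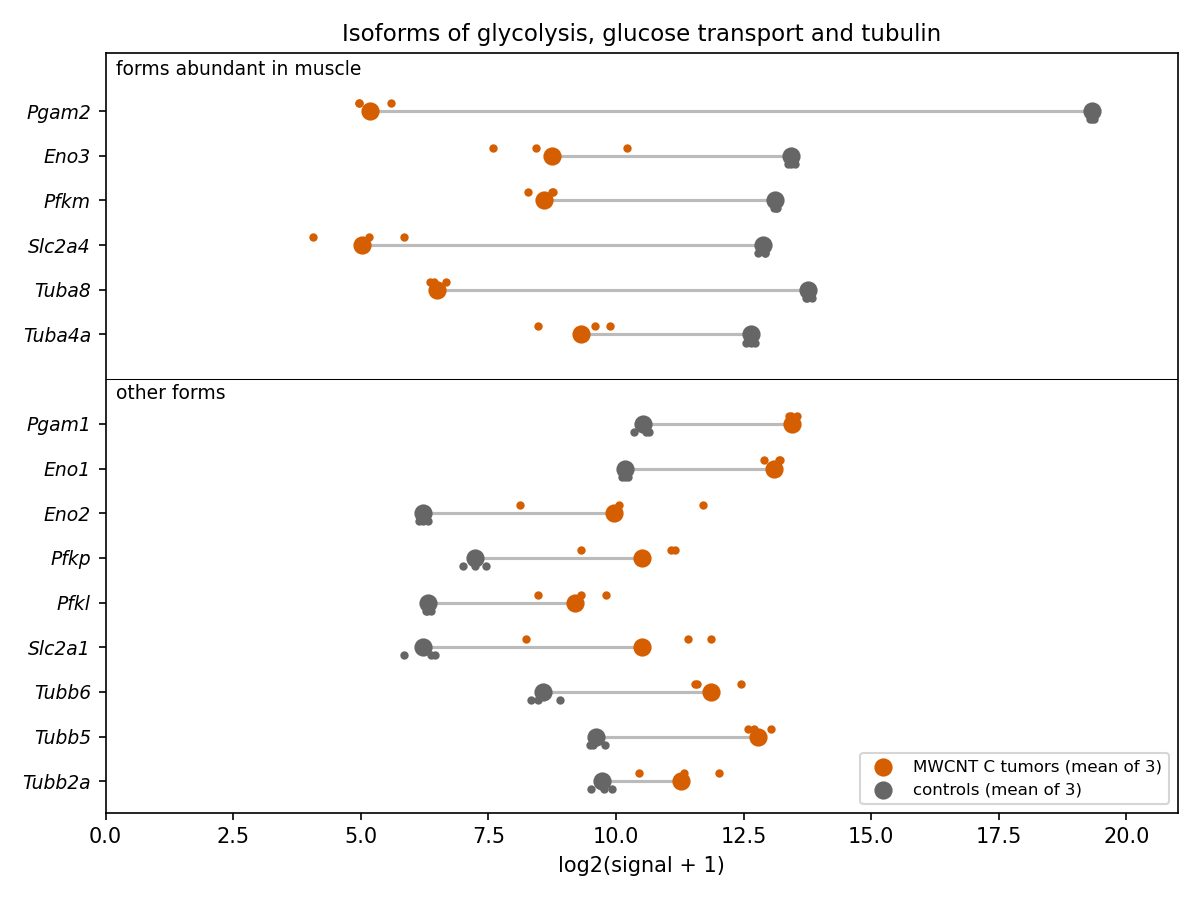
Log2(signal + 1) of forms abundant in muscle and of other forms of glycolytic enzymes, glucose transporters and tubulins, as the mean of 3 MWCNT C tumors (orange circle) and of 3 controls (gray circle) joined by a line, with small points for single arrays. The forms abundant in muscle (upper block) were lower and the other forms (lower block) higher in the tumors. Only forms called in these directions are shown, so that the split follows from the choice. Members not called, 10 of 25 genes of glucose transport and glycolysis and 6 of 11 tubulins, are left out. Some of the 8 genes called higher and 7 called lower in the list of glucose transport and glycolysis are left out as well.

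Oxidative phosphorylation genes, which encode the respiratory chain, were called lower for 21 of 38 members and higher for 0, with a median of -1.07. The lower count was 33 with arrays centred and 17 after quantile normalization or without tumor 3. Ndufs3, a subunit of complex I, had 9.73, 10.14 and 10.13 in the MWCNT C tumors, against 12.39, 12.40 and 12.39 in the controls, and Sdha, of complex II, had 10.49, 11.11 and 10.98 in the tumors and 12.32, 12.42 and 12.42 in the controls. The tumors were below the controls for both, at -2.39 (SE 0.19, adjusted p = 4.1e-06) for Ndufs3 and -1.52 (SE 0.25, adjusted p = 0.00062) for Sdha. Cytosolic ribosomal protein genes went the other way on the deposited scale, with 8 of 20 called higher and 0 lower, a count that was 2 with arrays centred, 17 after quantile normalization and 5 without control 1. Rpl3, a protein of the large subunit, differed by 2.39 (SE 0.18, adjusted p = 2.3e-06). Among 11 tubulins, the subunits of microtubules, 2 were called lower, the muscle and testis form Tuba8 at -7.28 (SE 0.23, adjusted p = 1.3e-09) and Tuba4a at -3.32 (SE 0.55, adjusted p = 0.0007). Called higher were Tubb6 at 3.29 (SE 0.51, adjusted p = 0.00044), Tubb5 at 3.17 (SE 0.18, adjusted p = 2.2e-07) and Tubb2a at 1.53 (SE 0.44, adjusted p = 0.016). Tubb2a lost its call with arrays centred, without control 1 and without tumor 3.

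Endothelial and angiogenic genes were called higher for 4 of 24 members (16.7%, against 24.9% of all genes) and lower for 2 (8.33%, against 10.1%). The higher count was 2 without tumor 1 or with low signals raised to 5 and 6 without tumor 3, and the lower count was 0 without control 2, control 3 or tumor 2 and 1 without control 1, tumor 1 or tumor 3. Apln (apelin), an angiogenic peptide, had 11.29, 8.43 and 9.62 in the MWCNT C tumors, against 6.93, 6.15 and 6.12 in the controls, a difference of 3.38 (SE 0.92, adjusted p = 0.012), with an adjusted p of 0.05 without tumor 1. Vegfa, the main angiogenic factor, had 11.93, 9.55 and 11.07 in the tumors and 10.63, 10.50 and 10.63 in the controls, which overlap, and a difference of 0.26 (adjusted p = 0.81). The endothelial receptor Kdr had a difference of 0.09. As for organs that a peritoneal tumor can touch and for blood, 0 of 15 pancreatic acinar genes and 0 of 5 erythroid genes were called, and of 13 liver genes 2 were called higher (0 with low signals raised to 5, and 1 without control 1, control 2, tumor 1 or tumor 3). The defining liver gene Alb had a difference of -0.95.

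The study selected 2 lists of its own on these samples, so that their counts are not independent of the comparison. Of 33 measured genes that it ties to mesothelioma 25 were called higher and 4 lower. Of the 6 it measured by RT-qPCR, 4 were called lower (Ret, Nr4a1, Fgfr4 and Plaat1, which the older name Hrasls denotes), Rnd3 was called higher at 2.94 (SE 0.53, adjusted p = 0.0012), and Gadd45b was not called, with 9.25, 6.93 and 8.86 in the MWCNT C tumors, against 8.13, 8.30 and 8.12 in the controls. Tumor 2 was below the controls for Gadd45b and tumors 1 and 3 above them. The study itself reports Gadd45b as upregulated by its microarray analysis, and by RT-qPCR in most tumors of a larger set. The reason for the difference from its microarray result was not tested.

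Tumors 1 and 2 against tumor 3 can be described but not tested, since there is 1 biphasic MWCNT C tumor. With low signals raised to 5, tumor 3 was more than 2 above both other tumors for 335 genes and more than 2 below both for 113. The counts were 121 and 43 for tumor 1, and 57 and 99 for tumor 2. Sult1b1, a sulfotransferase of gut and liver, had 17.43 in tumor 3 and lay below 5 in tumors 1 and 2. Over the other arrays it was at 11.43 in the epithelioid MWCNT B tumor and 13.09 in the epithelioid amosite tumor, and below 5 in the remaining 6 tumors and the 3 controls. Cldn18, a claudin of stomach and lung, had 13.12 in tumor 3 and lay below 5 in tumors 1 and 2, and Elf3, an epithelial transcription factor, had 13.46 in tumor 3, against 7.23 and 7.06 in tumors 1 and 2.

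In the other direction, Hmga2, a chromatin protein of embryonic and tumor cells, had 17.37 and 16.33 in sarcomatoid tumors 1 and 2 and 8.22 in biphasic tumor 3. It was at 16.28 in the sarcomatoid MWCNT B tumor and between 7.90 and 8.53 in the other 10 arrays, controls included. The group as a whole was not called, at a difference of 5.51 (adjusted p = 0.067) over all 3 tumors. Without tumor 3 the difference was 8.39, but Hmga2 was chosen by the gap of tumor 3, so that this fit is no test. The gene has 1 probe set. Igf2bp2, a protein that binds messenger RNA, had 10.73 and 10.34 in tumors 1 and 2 and 5.07 in tumor 3. Pou2af1, a coactivator of B cells, had 10.42 and 11.75 in tumors 1 and 2 and lay below 5 in tumor 3.

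The 10 genes with the largest gap each way were then read in the tumors of the other inducers, which had no part in their choice. Of the 10 higher in tumor 3, 7 were also higher in the mean of the 2 other biphasic than of the 3 other sarcomatoid tumors, against 48.0% of all genes, and 1 did not overlap, against 9.72% of all genes. Of the 10 lower in tumor 3, 8 were also lower in the other biphasic tumors, against 46.0% of all genes, and 3 did not overlap, against 6.53%. In the 3 epithelioid tumors against the same sarcomatoid ones, 8 of the 10 were higher and 9 of the 10 lower, against 47.7% and 46.8% of all genes. The genes within each set are not independent of each other, and no test was made.

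**Figure D4:**
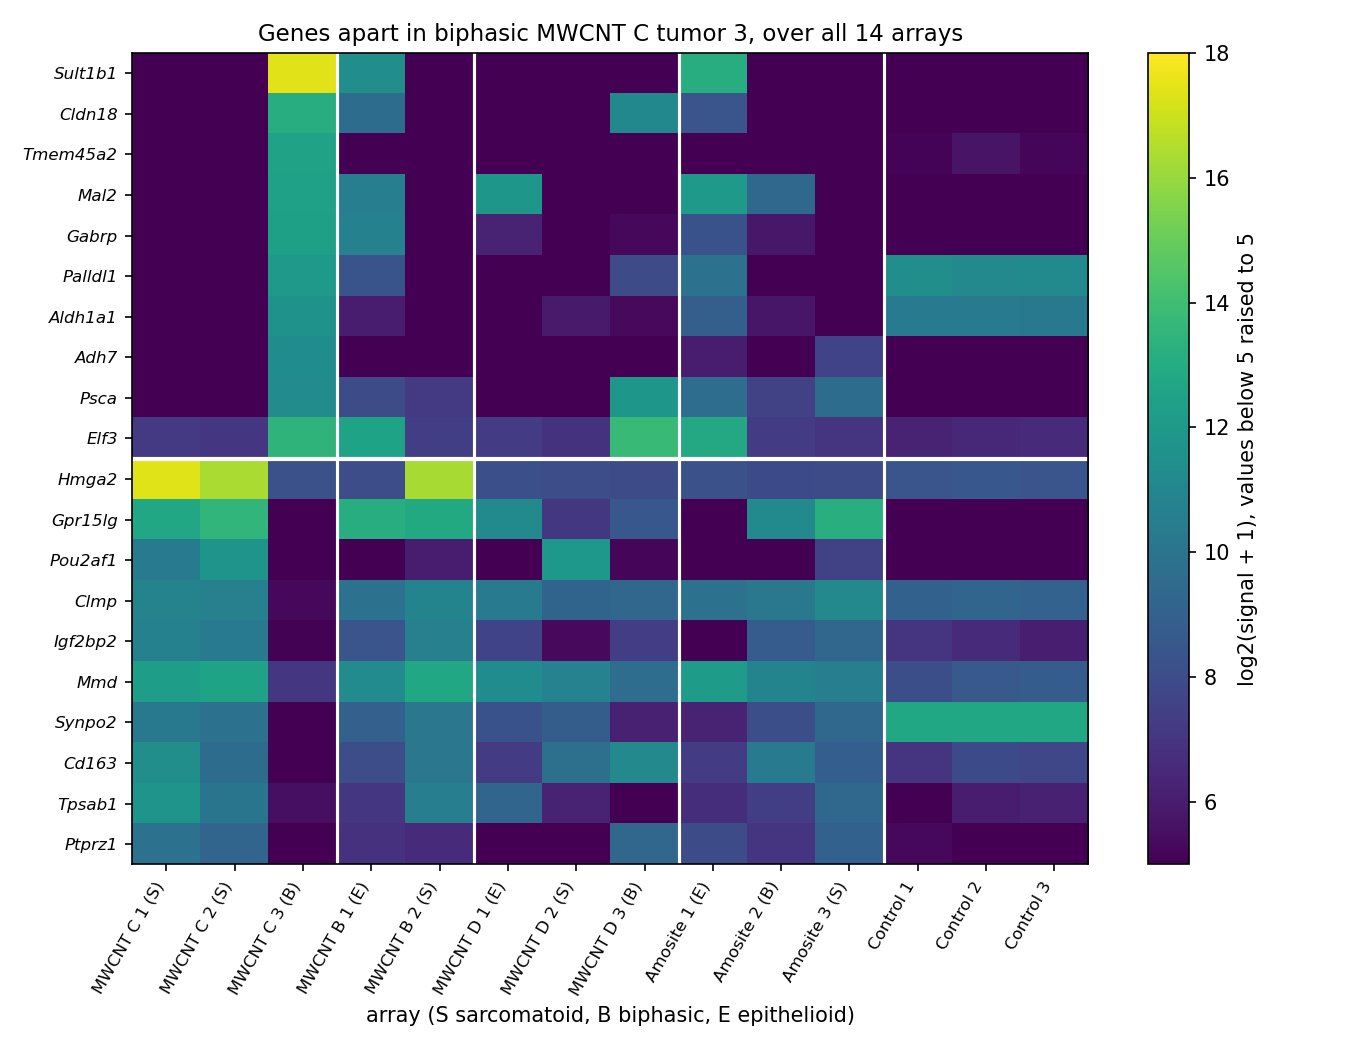
Log2(signal + 1), with values below 5 raised to 5, of the 10 genes with the largest gap up (upper rows) and down (lower rows) between biphasic MWCNT C tumor 3 and the nearer of tumors 1 and 2, over all 14 arrays grouped by inducer, with S, B and E for sarcomatoid, biphasic and epithelioid. Hmga2 was above 16 in 3 sarcomatoid tumors (MWCNT C tumors 1 and 2 and 1 MWCNT B tumor) and below 9 in the other 11 arrays.

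Few probe sets separated the MWCNT C tumors from those of the other inducers. The MWCNT B, MWCNT D and amosite groups each held 1 epithelioid tumor and the MWCNT C group none. Inducer and tumor type can therefore not be fully told apart here or for the single genes that follow. Against the mean of the MWCNT B, MWCNT D and amosite groups, 0 of 31042 probe sets (0.0%) were called by limma, the smallest adjusted p was 0.77, and 1689 probe sets (5.44%) had an unadjusted p below 0.05. The median standard error of a difference was 0.25 in this contrast and 0.30 against the controls. Against MWCNT B 0 were called (0.0%), with 770 at an unadjusted p below 0.05, and against amosite 0 (0.0%), with 1860. Against MWCNT D 1 probe set was called, or 0.00322%, with 2469 at an unadjusted p below 0.05. That probe set, for which the annotation gives no gene, had 4.48, 4.20 and 4.56 in MWCNT C tumors, against 8.72, 9.53 and 7.63 in MWCNT D tumors, a difference of -4.21 (SE 0.39, adjusted p = 0.0091). The other tumors and the controls were between 3.71 and 4.55, so that the 3 MWCNT D tumors alone stood apart from the other 11 arrays.

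All 3 MWCNT C tumors were above all 8 other tumors for 68 of 14217 genes (0.478%) and below all 8 for 82 (0.577%), and the genes with the widest gaps are named here after their values were seen. Cda, which deaminates cytidine, had 8.94, 8.46 and 7.12 in MWCNT C tumors, against 4.10 to 6.63 in the other tumors, with a median of 5.69. Its difference from the other inducers was 2.45 (SE 0.38, adjusted p = 0.77), and the controls had 7.35, 6.61 and 7.28, so that MWCNT C tumors 1 and 2 lay above them and the other tumors near or below them. Lims2, an adaptor of focal adhesions, had 4.45, 5.50 and 4.60 in MWCNT C tumors, against 6.45 to 10.07 in the other tumors, a difference of -2.72 (SE 0.60, adjusted p = 0.77). Ogn (osteoglycin), a small proteoglycan of connective tissue, had 7.76, 10.08 and 10.16 in MWCNT C tumors, against 10.71 to 12.95 in the others, at -2.30 (SE 0.50, adjusted p = 0.77). None of the 3 passed the test over all probe sets.

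For a few of the genes above, the differences from control in the other inducers are given side by side, since all of them share the same 3 control arrays. Mki67 differed from control by 5.81 in MWCNT C tumors, by 5.12 in MWCNT B, 4.29 in MWCNT D and 4.85 in amosite tumors. Msln differed by 7.03 in MWCNT C, 7.35 in MWCNT B, 6.35 in MWCNT D and 7.44 in amosite tumors. Pkp1 differed by 10.52 in MWCNT C, 9.85 in MWCNT B, 6.90 in MWCNT D and 8.63 in amosite tumors. Set directly against the other inducers, MWCNT C tumors differed in Pkp1 by 2.06 (SE 0.95), which did not pass the test (adjusted p = 0.9).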

How the data were processed

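RNA of 11 flash-frozen rat peritoneal mesotheliomas and 3 control peritoneal tissues was labelled with the 3′ IVT Plus kit and hybridized to Affymetrix GeneChip rat expression arrays, 1 per tissue. The authors normalized the arrays with PLIER in Transcriptome Analysis Console and deposited linear probe set intensities. Array intensities have no read depth, and the number of arrays limits the precision.

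From these intensities 57 control probe sets were removed, and log2(signal + 1) of 31042 probe sets was fitted with limma 3.58.1 (R 4.3.3) over 5 groups: MWCNT C (3), MWCNT B (2), MWCNT D (3), Amosite (3) and Control (3). A probe set was called at a Benjamini-Hochberg adjusted p below 0.05 over all probe sets and a change of more than 2-fold, and every adjusted p in the text is from limma. The labels number biological replicates, and nothing says more of the animals than 1 tissue per rat. Of the probe sets, 20826 carry 1 gene symbol, 436 several and 9780 none. Symbols were updated through gene IDs of the RefSeq table of build GRCr8, which held 20758 of the 20826, and a gene was taken as its single-symbol probe set of highest mean signal over the 14 arrays. Of 207 genes with values in the text, 27 have probe sets that differ in their call. Genes with no such probe set were not analysed here.

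The MWCNT C tumors and the 50 gene lists were chosen with earlier results of these data known. Named genes are the 15 largest rises and falls without overlap and with a mean log2 signal of at least 8 in the higher group, up to 8 called members of each list with the largest change at low signals raised to 5, its defining members, up to 5 members not called or against the majority, and the 10 genes each way apart in tumor 3. Another 44 members of the lists, such as the main kinases, collagens and cytokines, were named after their values were seen. Lists are described by counts and medians, with no set test. The contrast with the other inducers is MWCNT C minus the mean of the 3 other tumor group means. Promoter windows come from RefSeq and were searched by their letters. The fit was tested on simulated data for MWCNT C against control. It called 58 of 100 probe sets changed by 1.5 log2 and 83 of 100 changed by 3, with 1 false call. A gene that was not called may thus still differ. The alternatives tried were a median centring of the arrays, their quantile normalization, a pseudocount of 16, low signals raised to 5, only probe sets averaging at least 6, no moderation, trend and robust moderation, only the groups compared, a replicate block, leaving out each MWCNT C and control array, an adjusted p below 0.001, tumor type as a covariate, and another choice of probe set.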

Additional observations from a re-analysis of the deposited data

Results flagged for a closer look

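One effect differed between inducers by a test of the difference itself. A probe set for which the annotation gives no gene had log2 signals of 4.48, 4.20 and 4.56 in the MWCNT C tumors, against 8.72, 9.53 and 7.63 in the MWCNT D tumors, a difference of -4.21 (SE 0.39, limma adjusted p = 0.0091). The controls had 4.23, 3.71 and 4.22, so that MWCNT C tumors differed from them by 0.36 (adjusted p = 0.48) and MWCNT D tumors by 4.57. It is 1 of 31042 probe sets, and its call was lost with low signals raised to 5, without MWCNT C tumor 1 or 2 and under the other alternatives that the next section gives as 0.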

How the results depend on the processing

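Against control, 9950 probe sets were called, and the count stayed between 7765 and 10495 under the other scalings, filters and fits. With arrays centred 4379 were higher and 5113 lower, of which 7536 in all shared the call on the deposited scale. At an adjusted p below 0.001 the count was 4269 (2715 higher and 1554 lower), as fewer pass a stricter threshold. Leaving out 1 MWCNT C or control array gave 8693 to 9577 called, 5903 to 6426 higher and 2790 to 3169 lower. The replicate block gave 9927, of which 9729 were also called without it, and changed the call of 0 named genes. The correlation of deviations of same-numbered MWCNT C and control arrays was -0.081, 0.0015 and -0.005, and nothing in the labels says that a number pairs them.

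Against the mean of the other inducers and against MWCNT B, 0 probe sets were called under every alternative run, except that against the mean leaving out 1 array gave 0 to 1 (1 without MWCNT C tumor 2 or 3). Against amosite there was 1 with a pseudocount of 16, and 0 to 2 leaving out 1 array (1 without MWCNT C tumor 2, 2 without tumor 3). Against MWCNT D 0 were called with low signals raised to 5, with the filter at 6, without moderation, with only the groups compared, with the replicate block, with tumor type as a covariate and at an adjusted p below 0.001, 2 with a pseudocount of 16, and 0 to 2 leaving out 1 array (0 without MWCNT C tumor 1, a different probe set without tumor 2, 2 without tumor 3). Without MWCNT D tumor 2 and amosite tumor 1, the arrays with the most pancreatic signal, 2 were called, an alternative chosen after seeing the data, as was quantile normalization of the list counts. The cause of these changes was not tested.

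Over 16 alternatives, the values of the 207 named genes kept their side of the threshold in 3159 cases, fell short of it in 109 and passed it in 27. A change of sign in a gene called in either fit occurred in 0 cases. Genes not called could change sign and still count as kept, such as Cd163, at 0.86 over all 3 tumors and -0.62 without tumor 1. Of 1000 list counts 106 moved by more than 1.5 times.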

Other observations

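Some of the largest rises belong to no list. Myrf, a membrane-bound transcription factor known from oligodendrocytes, had log2 signals of 8.15, 6.51 and 10.64 in the MWCNT C tumors, against 0.01, 0.01 and 0.03 in the controls. The whey acidic protein family member Wfdc18 had 11.69, 6.24 and 10.40 in the tumors and 0.01, 1.27 and 2.09 in the controls. Both were lowest in tumor 2, and both lost their call with low signals raised to 5.

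Among the genes on which tumor 3 stood apart, 2 were also high in the controls. Palldl1 had a log2 signal of 11.98 in tumor 3 and 11.11 to 11.43 in the controls, and lay below 5 in tumors 1 and 2. Aldh1a1, which makes retinoic acid, had 11.65 in tumor 3 and 10.26 to 10.36 in the controls, and lay below 5 in tumors 1 and 2. Synpo2, an actin-binding protein of muscle, was in contrast highest in the controls, at 12.74 to 12.80, with 10.24 and 9.89 in tumors 1 and 2 and less than 5 in tumor 3. Gpr15lg, a ligand that attracts T cells, had 12.82 and 13.53 in tumors 1 and 2 and lay below 5 in tumor 3 and in the controls, while in the tumors of the other inducers it reached 13.21. Aldh1a1 and Gpr15lg were not called over the 3 tumors. Without tumor 3 their differences from control were -6.67 and 9.25, but both were chosen by the gap of tumor 3, so that this fit is no test. Palldl1 was not called.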
